A study of Mus musculus with 4 samples.

Results

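Open chromatin of mouse hepatocytes at 72 h after partial hepatectomy (PHx) was compared with that at 48 h, in peaks that were called with nearly the same length at both times. Members were autosomal peak pairs that overlapped each other and no other peak, with the longer peak at most 1.1 times the shorter. Of 99704 pairs of overlapping peaks, 25512 met this rule, and 15748 of these had a mean of at least 100 counts once both libraries were scaled to equal totals. These 15748 pairs were 5805 promoters, with an annotated transcription start site (TSS) within 1 kb of the pair, and 9943 distal elements. The series profiled liver hepatocytes by single-nucleus ATAC-Seq (scATAC-Seq), in which the Tn5 transposase cuts accessible DNA, without surgery and at 48, 72 and 96 h after PHx, with 1 library per time. Both libraries used here, PHx 48 h and PHx 72 h, came from male C57BL/6J mice of 10 to 12 weeks on normal diet, whose hepatocytes were freed by collagenase perfusion. The 48 h library was made from the hepatocytes of 1 mouse, while the sources used here do not say how many animals gave the 72 h library. With 1 library per time, time and library cannot be told apart, no test between times was possible, and every interval below is an exact 95% interval that covers counting error only.

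Once part of the liver has been cut away by PHx, the remaining hepatocytes leave quiescence, copy their DNA and divide, while they go on making plasma proteins, glucose, urea and bile. Accessible promoters and distal elements (enhancers among them) are the stretches of DNA that transcription factors and RNA polymerases can reach. Very broad accessible stretches often cover whole genes that a tissue transcribes strongly, such as those of albumin or apolipoproteins in liver. Accessibility is not a measurement of RNA.

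Nuclei were barcodes with at least 1000 counts in peaks. There were 3892 at 48 h with a median of 11629 counts and 4256 at 72 h with a median of 4841. Counts in the 25512 pairs totalled 15677078 at 48 h and 7320143 at 72 h, and levels are given as CPM, the counts of a pair scaled to these totals. The log2 ratio of 72 h to 48 h was centred on its median over the 15748 pairs, which took off 0.054. A pair was called higher or lower at 72 h when it was past 1.5-fold after centring. The values next to this limit were 0.58 just outside and 0.59 just inside. The 2 libraries listed 725 barcodes in common, of which 44 had at least 1000 counts in both.

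The hepatocyte label was checked against marker genes, in all peaks of each library and not only in matched ones. Reads over 12 hepatocyte markers summed to 4956 CPM at 48 h and 3216 CPM at 72 h, and none of the 12 was at 0 at either time. Fgb, from 952 to 192 CPM, had the largest fall among the 12. Markers of endothelial cells (12 genes) summed to 351.1 and 398.3 CPM, those of stellate and mesenchymal cells (12 genes) to 167.3 and 223.4 CPM, those of Kupffer and myeloid cells (11 genes) to 237.6 and 215.7 CPM, those of biliary cells (10 genes) to 439.3 and 358.4 CPM, and those of lymphocytes (12 genes) to 67.89 and 24.34 CPM. Most of the lymphocyte sum was Cd79a, at 44.5 CPM at 48 h and 0 at 72 h, and Lck, at 15.1 and 15.4 CPM. Among the defining markers C1qa, Cd5l, Cd3g, Ms4a1, Nkg7, Trac and Lum were at 0 at both times, Marco, Dcn and Krt19 at 48 h, and Des at 72 h. These sums move with the called length of each peak. In length-matched pairs the summed log2 ratio was -0.10 (-0.25 to 0.04) for endothelial, 0.08 (-0.05 to 0.20) for Kupffer and myeloid, 0.08 (0.00 to 0.16) for stellate and -0.04 (-0.13 to 0.05) for biliary markers. These values rest on 10, 3, 14 and 8 pairs. Hepatocyte markers had 1 matched pair, Apob, at -0.66 (-0.70 to -0.63), and lymphocyte markers had none. Nuclei with more counts at markers of other cells than at those of hepatocytes were 214 (5.50%) at 48 h and 576 (13.5%) at 72 h, and they were shallow, with medians of 2404.5 and 2649.5 counts. Their part in each result was not tested except by leaving them out, which gave 76 promoters higher and 130 lower, against 67 and 132 with all nuclei.

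The DNA before 3 of the promoters that the results turn on is shown first, read 5′ to 3′ on the strand of the gene. Each window was the 250 bases before the RefSeq start on GRCm38.p6, and the part from an annotated exon to that start was left out. This left 245 bases for Igfbp1, 95 for G6pc and 250 for Fasn. Igfbp1 and G6pc, both lower at 72 h, encode products that insulin represses in liver through FOXO factors, which bind the core CAAAACA. Fasn, higher at 72 h, has CCAAT boxes, the letters bound by NF-Y, and the window of G6pc holds 2 matches of CCAAT as well, left in lower case. Capitals mark CAAAACA on either strand (TGTTTTG on the reverse) in Igfbp1 (chr11:7197537-7197781, plus strand) and G6pc (chr11:101367466-101367560, plus strand), and CCAAT on either strand (ATTGG on the reverse, 3 matches, of which 2 overlap) in Fasn (chr11:120824548-120824797, minus strand).
Igfbp1: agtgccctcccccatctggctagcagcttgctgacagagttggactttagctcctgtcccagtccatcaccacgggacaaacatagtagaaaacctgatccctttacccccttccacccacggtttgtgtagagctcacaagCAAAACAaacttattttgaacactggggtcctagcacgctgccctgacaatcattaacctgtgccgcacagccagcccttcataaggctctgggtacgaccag
G6pc: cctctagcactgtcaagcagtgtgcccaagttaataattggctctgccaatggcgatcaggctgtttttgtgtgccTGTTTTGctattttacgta
Fasn: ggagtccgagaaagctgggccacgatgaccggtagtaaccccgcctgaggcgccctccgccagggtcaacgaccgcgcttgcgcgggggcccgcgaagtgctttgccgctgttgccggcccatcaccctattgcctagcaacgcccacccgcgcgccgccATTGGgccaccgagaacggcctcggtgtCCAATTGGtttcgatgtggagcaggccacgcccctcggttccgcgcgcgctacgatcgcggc
A match is a description of letters and not a bound site. CAAAACA was present in 5.56% and CCAAT in 33.8% of 32851 RefSeq windows of the full 250 bases before a start, with exons not removed. Both motifs were chosen for display after the values had been seen.

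Genes of transfer RNA (tRNA), short RNAs that carry amino acids to the ribosome and are transcribed by RNA polymerase III, are shown next, 3 of them, because peaks over tRNA genes are described below as a set and these hold the lowest and the highest ratios of single genes. Capitals mark the B box, the inner promoter element that binds TFIIIC, searched as GGTTCGA or GGTTCAA. The genes are n-TEttc5 (tRNA-Glu, chr13:23463535-23463606, plus strand), n-TAagc16 (tRNA-Ala, chr13:21222586-21222657, plus strand) and n-TEttc8 (tRNA-Glu, chr9:104408667-104408738, minus strand), from RefSeq on GRCm38.p6.
n-TEttc5: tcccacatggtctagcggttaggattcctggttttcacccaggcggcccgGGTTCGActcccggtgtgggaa
n-TAagc16: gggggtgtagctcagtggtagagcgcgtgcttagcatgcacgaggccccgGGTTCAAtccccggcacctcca
n-TEttc8: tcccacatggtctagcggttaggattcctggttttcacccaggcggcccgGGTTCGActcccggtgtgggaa
The first and the last of these are identical in sequence.

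Promoters and distal elements past the limit were few in both directions, and which direction had more of them changed with the processing. Of 5805 promoters, 67 (1.15%) were higher and 132 (2.27%) lower, 199 (3.43%) in all, and at 2-fold 1 (0.0172%) was higher and 7 (0.121%) lower. Distal elements divided the other way, with 196 (1.97%) higher and 160 (1.61%) lower of 9943, and 1 in each direction (0.0101% and 0.0101%) at 2-fold. Over all pairs 263 (1.67%) were higher and 292 (1.85%) lower, so that 47.4% of calls were higher. At 2-fold 2 pairs (0.0127%) were higher and 8 (0.0508%) lower. Without centring 112 promoters were higher and 82 lower, and 70.0% of all calls were higher. Over all pairs of any length 833 promoters were higher and 790 lower, and centring in bins of mean count gave 83 in each direction. With the centre taken over all 25512 pairs 25.3% of calls were higher. The balance also turned with the centring rule kept. Counts in which a nucleus adds at most 1 to a peak (binarised counts) gave 52 promoters higher and 33 lower, and nuclei of 3000 to 10000 counts gave 76 and 62. For distal elements lower ones were the more in both, with 26 higher and 69 lower in binarised counts and 31 and 56 in the depth band. They were also the more with nuclei thinned to 1000 counts (6 and 18), a stricter limit on the length ratio (66 and 82), a minimum mean of 200 counts (57 and 81) and centring in bins of mean count (134 and 180). The balance of directions in either class thus changed with the processing. Several alternatives also changed which pairs passed the minimum count. Distal elements measured were 5047 with binarised counts, 1779 in the depth band and 327 with thinning, against 9943. The parts of the centre, the depth, the way of counting and the pairs kept were not told apart. The bulk of pairs moved little, with medians of -0.01 for promoters and 0.00 for distal elements and SDs of 0.272 and 0.278 over pairs.

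**Figure D1:**
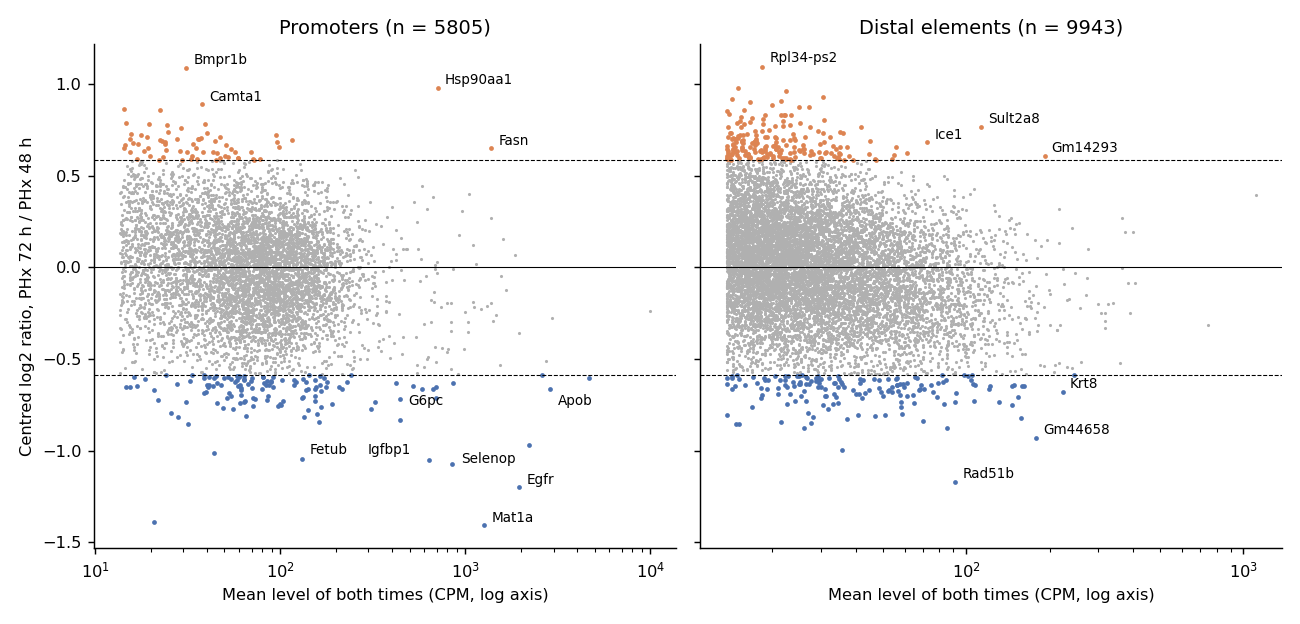
Centred log2 ratio of PHx 72 h to PHx 48 h (y axis) against the mean level of both times in CPM (x axis, log scale) for 5805 promoter pairs (left) and 9943 distal pairs (right), 1 point per pair, with dashed lines at 1.5-fold and colour for pairs past them. Most points lie between the dashed lines, and among promoters of high level Mat1a (-1.41) and Egfr (-1.20) lie lowest and Hsp90aa1 (0.98) highest.

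The lower promoters whose intervals lay farthest from 0 included broad peaks over genes of hepatocyte metabolism and secretion. Mat1a makes S-adenosylmethionine, the methyl donor, from methionine in adult liver. Its pair (chr14:41103531-41129158, 25628 bp at 48 h and 24919 bp at 72 h) held 28506 counts or 1820 CPM (1790 to 1850) at 48 h and 5210 counts or 712 CPM (685 to 740) at 72 h, a log2 ratio of -1.41 (-1.47 to -1.35). Selenop, the secreted carrier of selenium, went from 1140 CPM (1120 to 1170) to 564 CPM (540 to 589), a log2 ratio of -1.07 (-1.14 to -1.0). Igfbp1, a secreted binding protein of insulin-like growth factors that rises early after PHx, went from 847 CPM (826 to 867) to 424 CPM (403 to 446), -1.05 (-1.13 to -0.97), over chr11:7191943-7205995. In each of these genes the intervals at the 2 times were far apart. The secreted proteinase inhibitors pregnancy zone protein (Pzp) and fetuin B (Fetub) were also lower, with 2870 and 1520 CPM (-0.97) for Pzp and 175 and 88.1 CPM (-1.04) for Fetub. G6pc, the last enzyme of glucose release, had 542 CPM (526 to 558) and 342 CPM (323 to 361), -0.72 (-0.81 to -0.63). Apob, the structural protein of very low density lipoprotein, had 3480 CPM (3440 to 3520) and 2280 CPM (2230 to 2330), -0.66 (-0.70 to -0.63). Gpld1, a secreted phospholipase that cleaves glycosylphosphatidylinositol anchors, was at 207 and 127 CPM (-0.76), and Kyat1, an aminotransferase of kynurenine, at 385 and 234 CPM (-0.77). Fam32a, at 849 and 539 CPM (-0.71), and the joint promoter of Ech1, an enzyme of fatty acid oxidation, and Hnrnpl, at 199 and 119 CPM (-0.80), were lower as well. For several of these broad pairs the 2 ways of counting a nucleus once gave different directions. With binarised counts, scaled to the binarised totals, the log2 ratio was 0.04 for Mat1a, 0.04 for Selenop, 0.53 for Pzp, 0.13 for Fam32a and 0.75 for Apob, which turns their direction, and -0.04 for Igfbp1 and -0.05 for G6pc, while Fetub stayed at -0.81. The share of all nuclei at 48 h with a count was 73.5% for Mat1a, 66.1% for Selenop, 82.2% for Pzp, 59.1% for Fam32a and 83.9% for Apob. The part of such shares in the reversals was not tested. Among nuclei of 3000 to 10000 counts, the share with any count was lower at 72 h in each of the 5 pairs that turned. It was 63.2% (60.4 to 65.9) and 37.5% (35.6 to 39.4) for Mat1a, 52.3% and 34.9% for Selenop, 77.3% and 63.3% for Pzp, 42.6% and 33.0% for Fam32a and 79.7% (77.3 to 81.9) and 75.8% (74.1 to 77.5) for Apob. Within this band nuclei were still deeper at 48 h, with medians of 6342 and 5480.5 counts.

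Egfr, the receptor of epidermal growth factor, had 42171 counts or 2690 CPM (2650 to 2730) at 48 h and 8913 counts or 1220 CPM (1180 to 1250) at 72 h, a log2 ratio of -1.20 (-1.24 to -1.15). It turned to 0.36 with binarised counts, whereas the share of nuclei of 3000 to 10000 counts with any count was 78.6% (76.2 to 80.9) at 48 h and 55.3% (53.3 to 57.2) at 72 h. This pair (chr11:16879936-16923323) lies inside the gene, 127733 bp from its 5′ end, and counts as a promoter only through 1 annotated transcript that starts there. The pairs of Fndc3a (-0.78, 105146 bp from the 5′ end) and St5 (-0.74, 99816 bp) likewise rest on 1 transcript start each. The pair of Cald1 (caldesmon, -0.83) lies 109873 bp from the 5′ end and near the starts of 4 transcripts. Of the 40 named promoter pairs, 30 held the start of a transcript that GENCODE tags as principal for the first gene named and 8 did not. The small RNA genes Gm24187 and Mir148b, both annotated as microRNAs, had 29.7 and 11.7 CPM (-1.39, -1.90 to -0.92) and 58.3 and 29.9 CPM (-1.02). Gm24187 rests on 466 and 86 counts, so its interval is the widest of the 20 lower promoters. Rnf125, a ubiquitin ligase, and the genes Gm4951 and Gm33543 completed the 20, at -0.82, -0.84 and -0.74. All 20 pairs were called shorter at 72 h than at 48 h, within the limit of 1.1 times.

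Among higher promoters a heat shock gene and a lipogenic gene stood out by level. Hsp90aa1 encodes the inducible cytosolic chaperone HSP90 alpha. Its pair (chr12:110680967-110697393, shared with 1700001K19Rik, 15997 bp at 48 h and 16427 bp at 72 h) held 7290 counts or 465 CPM (450 to 480) at 48 h and 6974 counts or 953 CPM (921 to 985) at 72 h, a log2 ratio of 0.98, and 1.06 with binarised counts. Fasn encodes fatty acid synthase. Its pair (chr11:120799573-120825988) held 16442 counts or 1050 CPM (1030 to 1070) and then 12505 counts or 1710 CPM (1670 to 1750), a ratio of 0.65 (0.60 to 0.70) and 1.03 with binarised counts, although it was called shorter at 72 h, 25950 against 26416 bp. The other named higher promoters had lower levels and wider intervals. Bmpr1b, a receptor of bone morphogenetic proteins, had 303 counts or 19.3 CPM (16.4 to 22.7) and 313 counts or 42.8 CPM, a ratio of 1.09 (0.76 to 1.42), and was the one promoter past 2-fold. Mon1b, which acts in the traffic of late endosomes, had 86.8 and 146 CPM (0.69), and Map3k3, a kinase of stress signalling, had 101 and 155 CPM (0.56, with 0.41 to 0.72), short of the limit.

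The remaining higher promoters included genes known from neurons and their wiring (Sdk1 at 0.69, Anks1b at 0.71, Ptprr at 0.69, Tanc2 at 0.63, Dok6 at 0.78 and Prtg at 0.78), the kinase gene Lrrk2 (0.67), the kidney hormone gene Kl (Klotho, 0.73), the cholesterol 25-hydroxylase gene Ch25h (0.76), Rassf10 (0.66), Adam32 (0.86) and Oxr1 (0.71). Their levels at 48 h ranged from 15.4 CPM (Adam32) to 74.7 CPM (Rassf10). The neuronal genes were grouped by hand from the named promoters, and the share of such genes among all promoters was not counted. Camta1 (0.89) and Sept9 (0.73) held starts inside the gene, 752791 and 63468 bp from its 5′ end. The pair named for Gm21969 was at 0.53, short of the limit like Map3k3, and is among the 20 by the distance of its interval from 0. Of the 20 higher promoters 7 were called shorter at 72 h, among them Fasn.

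**Figure D2:**
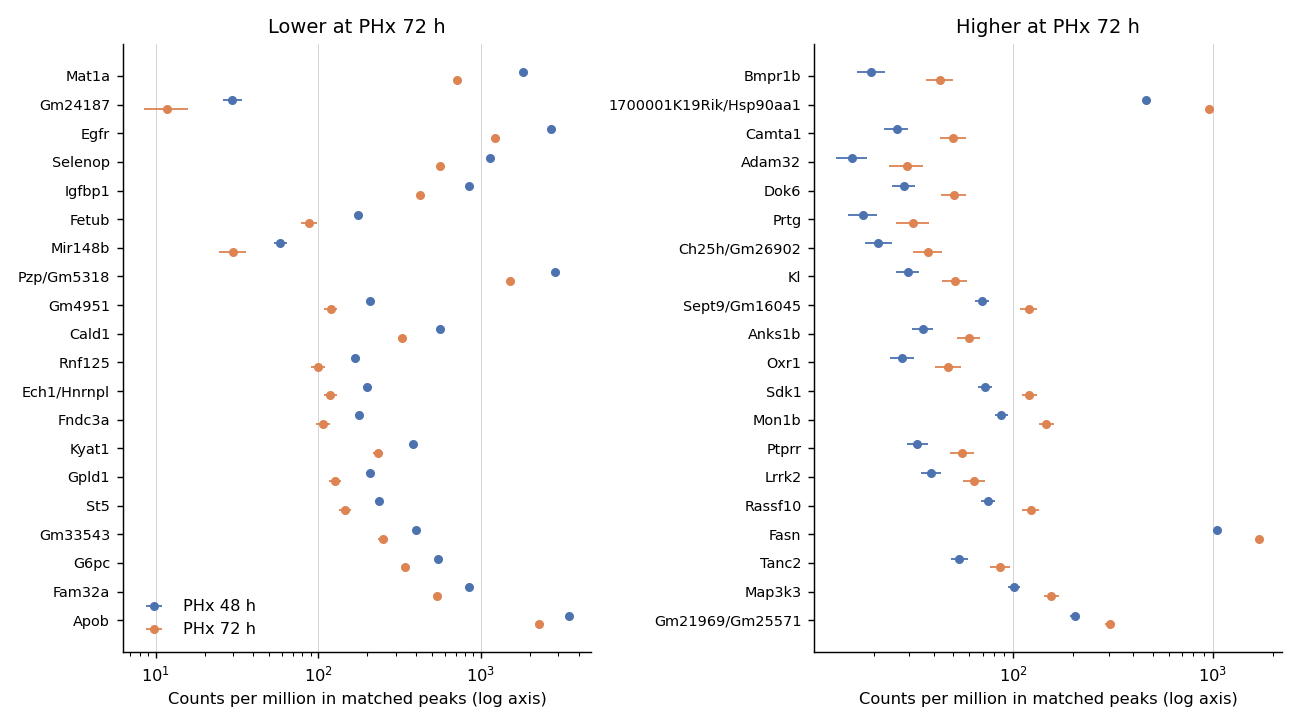
Levels in CPM (x axis, log scale) of the 20 promoter pairs farthest below (left) and the 20 farthest above 0 (right) by the interval of their ratio, 1 library per time, with points for PHx 48 h (blue) and PHx 72 h (orange) and bars for exact 95% counting intervals. The bars of the 2 times are apart in each of the 40 pairs, and Mat1a goes from 1820 to 712 CPM while Hsp90aa1 goes from 465 to 953 CPM.

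The lower promoters were long and the higher ones short and rich in GC. Median length was 3007.75 bp for lower, 1353 bp for higher and 2020.5 bp for all promoters, and median GC content 48.1%, 58.6% and 53.5%. Of 116 promoters over 10 kb, 17 (14.7%) were lower and 2 higher, with a median of -0.21. Of 316 between 5 and 10 kb, 21 (6.65%) were lower and none higher, while under 1 kb 3.91% were higher. Promoters below 45% GC had a median of -0.14 and those above 60% one of 0.17. Across all 15748 pairs, which share 2 libraries, Spearman's rho of the log2 ratio was 0.41 with the change in called length, -0.26 with length, -0.21 with mean level and 0.13 with GC content, given here as a description. Pairs that were called shorter at 72 h by more than 0.05 on the log2 scale had a promoter median of -0.10, and pairs called longer by more than 0.05 one of 0.18. How much of the counts follows from how the peaks were called was not tested beyond the alternatives below. With counts taken per base of called peak, 48 promoters were higher and 87 lower.

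Within the 116 broad promoters both directions were present. Below 0 were 82, of which 71 had an interval wholly below 0, and above 0 were 34, of which 25 had an interval wholly above. Beside the genes already named, the lower ones were Cps1, the entry enzyme of the urea cycle (118143 bp at 48 h, 5560 and 3790 CPM, -0.61), the pair of Malat1, an abundant nuclear noncoding RNA (-0.66), Mknk2, a kinase of translation factor eIF4E (-0.66), Mir101b (-0.65), Id2, an inhibitor of basic helix-loop-helix factors (-0.65), the transporter gene Slc6a13 (-0.63), Adamtsl4 with the survival gene Mcl1 (-0.63) and the proteoglycan gene Sdc4 (-0.59). Just short of the limit were Hspb8 (1080 and 751 CPM, -0.58), the bilirubin glucuronosyltransferase gene Ugt1a1 (3170 and 2310 CPM, -0.51) and Agt, the angiotensin precursor (-0.44). Above 0 beside Hsp90aa1 and Fasn, the highest was the pair of Gm21969 and Gm25571 (203 and 306 CPM, 0.53). Others were the mitochondrial chaperonin pair Hspd1 and Hspe1, which share 1 promoter (885 and 1210 CPM, 0.40), Dnajb4 (0.38), the cytokine kinase gene Jak1 (454 and 603 CPM, 0.36), Hsp90ab1 (543 and 704 CPM, 0.32), Elovl5 (837 and 1080 CPM, 0.31), Cth (1220 and 1520 CPM, 0.27), Fam107b (0.25), the developmental factor gene Pax6 (0.22), the tubulin gene Tubb2a (0.21), 1190002N15Rik (0.20), Dnaja1 (0.18) and Acly (0.16). Among those above 0 Hsp90aa1 and Fasn alone were past 1.5-fold. Of the 116, 90 were called shorter at 72 h.

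**Figure D3:**
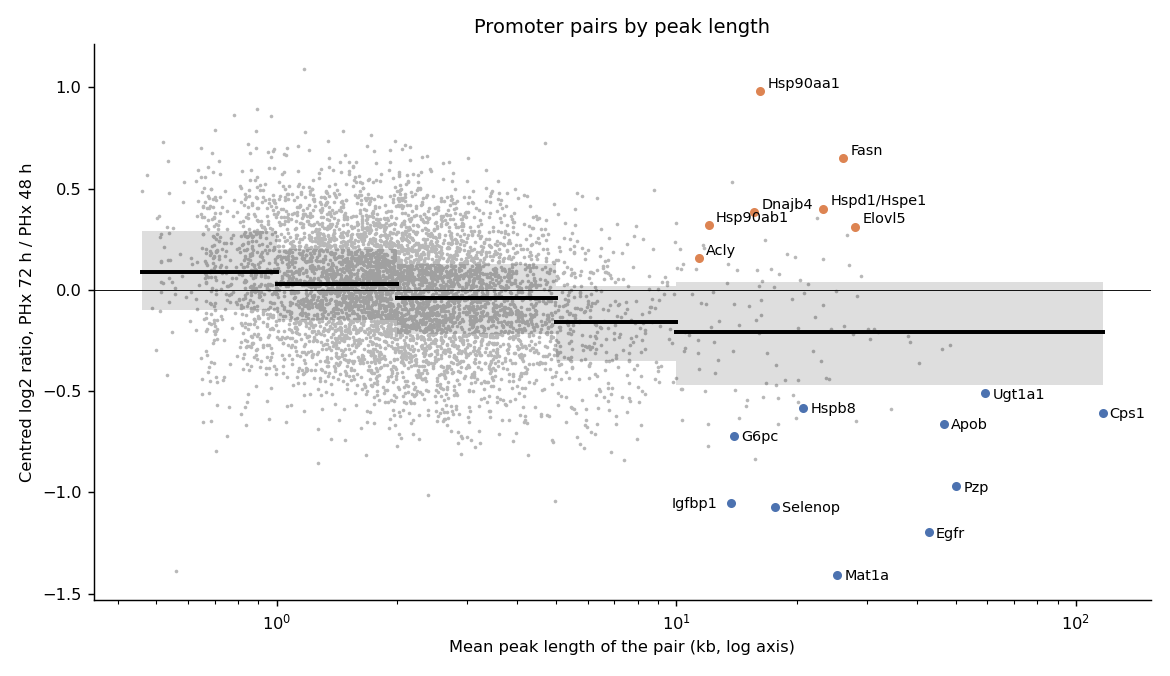
Centred log2 ratio of PHx 72 h to PHx 48 h (y axis) against the mean peak length of the pair in kb (x axis, log scale) for 5805 promoters, with black lines for the median and grey boxes for the middle 50% of pairs in each length class. The median goes from 0.09 under 1 kb to -0.21 above 10 kb, with Mat1a (-1.41) at the bottom and Hsp90aa1 (0.98) and Fasn (0.65) above the other broad promoters.

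The genes of hepatocyte metabolism were then read by list, each gene with the pair of highest count. Counts stand beside the share of all promoters called (1.15% higher, 2.27% lower) and their median of -0.01. In amino acid breakdown and the urea cycle 14 of 41 genes could be measured, 4 were lower (Mat1a, Cps1, Ido2 at -0.71 and Hgd at -0.60), none higher, and the median was -0.43. Ido2 opens a tryptophan ring and Hgd breaks down tyrosine. Only Cth, the cystathionine cleaving enzyme of cysteine synthesis, lay above 0 (0.27, 0.22 to 0.32), in a pair 10887 bp from the start of its principal transcript. Among phase II and glutathione genes 5 of 36 were measured, with a median of -0.51 and 2 lower, the glutathione transferase genes Gsta2 (79.1 and 49.5 CPM, -0.73) and Gstm2 (108 and 74.5 CPM, -0.60). For glucose and glycogen 9 of 30 genes had a median of -0.31 with 1 lower, G6pc, while Pygl, which breaks down glycogen, was at 401 and 438 CPM (0.08). With binarised counts these 3 medians were -0.13, -0.32 and -0.05. Distal elements, counted for a list when they lay in one of its genes or nearest to its TSS within 100 kb, had a median of -0.04 for amino acid breakdown and the urea cycle (13 elements, none past the limit), -0.37 for phase II (6, with 1 higher) and -0.27 for glucose and glycogen (12, with 1 lower).

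In fatty acid oxidation 8 of 36 genes had a median of -0.24 and 2 lower. These were Cpt2, of the carnitine shuttle (162 and 102 CPM, -0.71), and the acyl-CoA thioesterase gene Acot3 (104 and 69.1 CPM, -0.64), and Cpt1a, which sets the entry of fatty acids to mitochondria, was at 251 and 194 CPM (-0.43). Fatty acid synthesis was divided. Of 14 measured genes of 25, Fasn alone was higher, none was lower, and the median was -0.05 (from -0.10 to 0.24 over the alternatives). Elovl5 (0.31) and Gpam (0.25) lay next to Fasn, whereas Mlxipl, the carbohydrate-sensing factor ChREBP, was at 288 and 213 CPM (-0.49) and Scd1 at 654 and 547 CPM (-0.31). All 7 measured genes of cholesterol synthesis and LDL uptake lay below 0, from Sc5d (1140 and 929 CPM, -0.35) to Insig1 (1550 and 1560 CPM, -0.05), with none past the limit. Abcg5 and Abcg8 share 1 of these pairs. Apolipoprotein and lipoprotein genes (7 of 24) had a median of -0.28 with Apob lower. Complement genes (4 of 23) had -0.37 with C8a lower (-0.65). P450 genes (13 of 75) had -0.16 and none past the limit, with Cyp3a11, the main drug-metabolizing form of the list, at 1380 and 1240 CPM (-0.21), and the list median was 0.13 with nuclei thinned to 1000 counts. Genes of bile acid synthesis and transport (4 of 26) had -0.29, iron handling (4 of 20) -0.24 and coagulation (2 of 22) -0.11, with no promoter past the limit in these 3 lists. With binarised counts the median was -0.09 for fatty acid oxidation, -0.03 for apolipoproteins, -0.31 for complement and -0.13 for bile acid genes. That of cholesterol synthesis was -0.00 with binarised counts and -0.01 in nuclei of 3000 to 10000 counts. The distal elements of cholesterol synthesis had a median of 0.19 (7 elements, none past the limit), opposite in sign to its promoters. Those of fatty acid oxidation had -0.18 (10, with 2 lower), of fatty acid synthesis -0.04 (20, none), of apolipoproteins 0.01 (8, none) and of P450 genes 0.03 (12, with 1 lower). Distal medians were -0.15 for bile acid genes (13, with 2 lower), -0.14 for complement (5, none), -0.09 for iron handling (7, with 1 higher) and -0.24 for coagulation (5, none).

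No acute phase gene of 22 had a promoter in the matched pairs. Hepatocyte transcription factors (13 of 36 measured) had a median of -0.18 (0.05 with binarised counts) and none past the limit. Cebpb was at 715 and 525 CPM (-0.50, -0.58 to -0.42), Foxa1 at 366 and 307 CPM (-0.31) and Nr2f1, a nuclear receptor better known from development, at 38.5 and 60 CPM (0.58, 0.33 to 0.84). The circadian clock list (12 of 20) had a median of -0.10, which was 0.06 with binarised counts and 0.05 over all pairs of any length. In it Per1 was lower at 188 and 120 CPM (-0.70, -0.86 to -0.55), and Cry2 at -0.53 and Per2 at -0.42 lay below 0 without reaching the limit, while Arntl, the activator BMAL1, was at 88.7 and 116 CPM (0.33, 0.15 to 0.51). The repressor gene Bhlhe41 was at 0.11, and the activator genes Clock and Npas2 were at -0.01 and -0.02. Distal elements had a median of -0.10 over 35 for the transcription factors, with none past the limit, and of -0.12 over 23 for the clock list, with 2 lower.

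**Figure D4:**
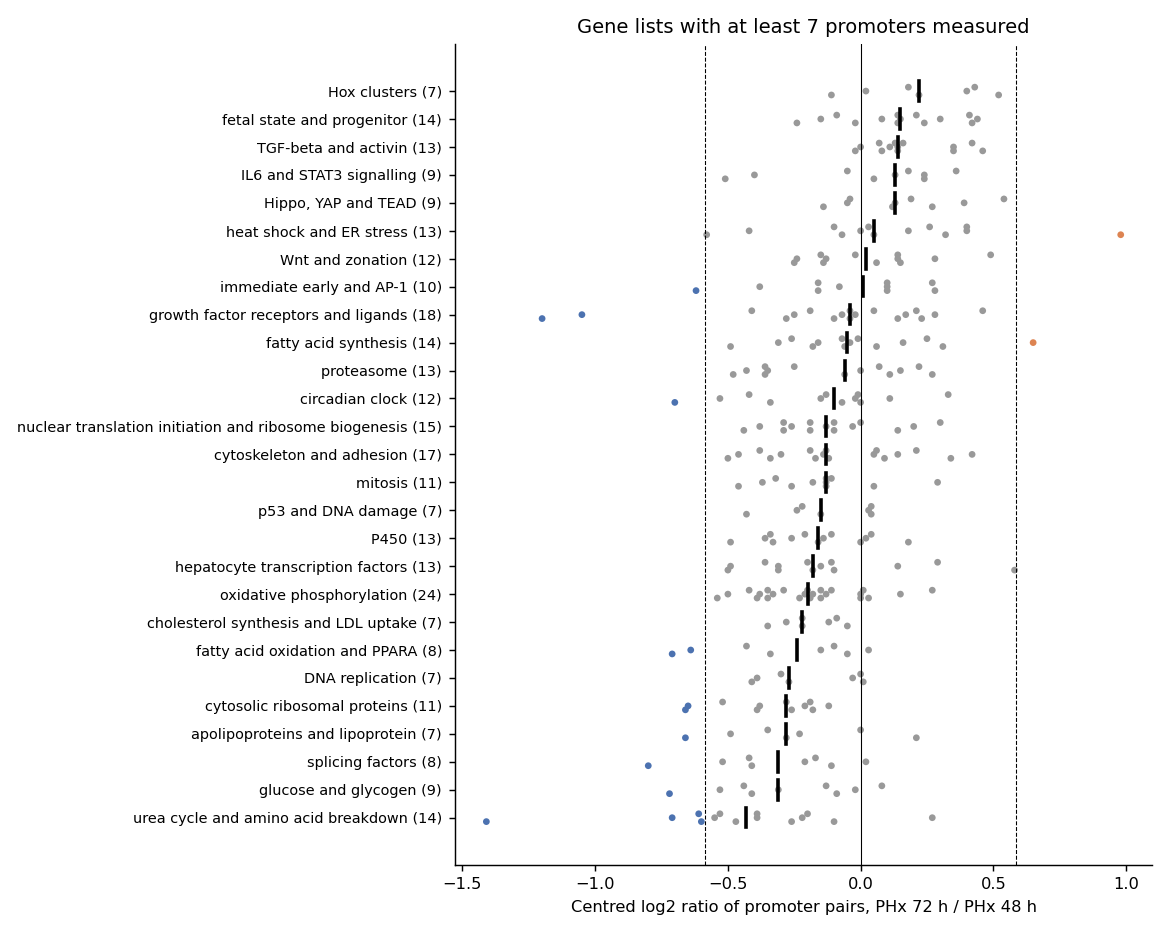
Centred log2 ratio of PHx 72 h to PHx 48 h (x axis) of each measured promoter in the gene lists with at least 7 of them (number in brackets), with black bars at the list median, dashed lines at 1.5-fold and colour for promoters past them. List medians run from -0.43 for the urea cycle and amino acid breakdown to 0.22 for the Hox clusters, and most single promoters lie inside the dashed lines.

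Among genes of the cell cycle, no promoter measured in the replication, mitosis and G1 lists was past the limit, beside 3.43% of all promoters. These lists are so small that none past the limit is near that share. DNA replication genes (7 of 42) had a median of -0.27 (-0.11 with binarised counts), with Rrm2, the ribonucleotide reductase subunit, at 124 and 97.4 CPM (-0.41), thymidine kinase (Tk1, in a pair shared with Afmid) at 201 and 159 CPM (-0.39) and Pole at 145 and 150 CPM (-0.00). Mitosis genes (11 of 34) had -0.13 (0.03 over all pairs of any length), from Aurkb at 35.2 and 26.5 CPM (-0.46) to Mki67 at 62.3 and 78.8 CPM (0.29). G1 cyclins, kinases and inhibitors (6 of 25) had 0.04 (from -0.01 to 0.22 over the alternatives), with Ccnd1, cyclin D1, at 169 and 190 CPM (0.11) and Cdkn1b at 174 and 184 CPM (0.02). Of the replication-dependent histone genes 4 of 69 were measured, and Hist1h4d was lower (201 and 130 CPM, -0.68). The p53 list (7 of 26) had -0.15 (0.02 with binarised counts), with Trp53 at 127 and 97.5 CPM (-0.43). 

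Lists of genes that most cells use followed. All 11 measured promoters of cytosolic ribosomal proteins (of 85) were below 0, with a median of -0.28, and Rpl10a (187 and 123 CPM, -0.66) and Rps18 (71.6 and 47.4 CPM, -0.65) were lower. The median stayed below 0 in each of 23 alternatives, from -0.43 to -0.20. Splicing factors (8 of 47) had -0.31 with the pair of Ech1 and Hnrnpl lower, in which the principal start of Hnrnpl is 8891 bp away, and -0.01 with binarised counts. Nuclear genes of oxidative phosphorylation (24 of 86) had -0.20, 20 of 24 below 0 and none past the limit, from Ndufs7 (-0.54, in a peak that also holds tRNA genes) to Uqcrc2 (0.27). Translation initiation and ribosome biogenesis (15 of 66) had -0.13, the proteasome (13 of 47) -0.06 and cytoskeleton and adhesion (17 of 39) -0.13, each with none past the limit. With binarised counts these 4 medians were -0.11, -0.01, -0.00 and 0.11, and that of the proteasome was 0.27 with nuclei thinned to 1000 counts. The distal elements of splicing factors had -0.32 over 10, those of ribosomal proteins -0.02 over 11.

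In the TGF-beta, Hippo, fetal and Hox lists the median lay above that of all promoters, with no member past the limit. Of TGF-beta and activin genes (13 of 30) 12 lay above 0 with a median of 0.14, led by the activin subunit gene Inhbb (102 and 146 CPM, 0.46, 0.30 to 0.62) and the signal transducer gene Smad2 (128 and 178 CPM, 0.42, 0.27 to 0.56). In the Hippo list (9 of 25) the median was 0.13, and Ccn2, a target of YAP and TEAD, had 34.2 and 51.6 CPM (0.54, 0.26 to 0.81). The fetal and progenitor list (14 of 34) had 0.15 and 10 genes above 0, with the oncofetal RNA-binding protein gene Igf2bp2 at 62.1 and 87.6 CPM (0.44), Hmga2 at 66.0 and 91.3 CPM (0.41) and Sox9 at 94.7 and 121 CPM (0.30). Hox genes (7 of 39) had 0.22 and 6 above 0, up to Hoxb9 at 14.7 and 22.0 CPM (0.52). These 4 medians were above 0 in every alternative that gave one. They were 0.07 (Hippo) and 0.09 (fetal) when the ratio was centred within bins of GC content, and that of the Hox genes was 0.08 in bins of length change and 0.12 with binarised counts. Their distal elements did not share these medians, with -0.02 over 32 elements for TGF-beta, 0.01 over 11 for Hippo (1 higher and 1 lower) and 0.01 over 30 for the fetal list (1 higher). The Wnt list (12 of 32) had 0.02 (-0.07 within bins of GC content), with Nkd1, a feedback inhibitor, at 38.3 and 56.0 CPM (0.49).

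In the IL6 and STAT3 list (9 of 22) the median was 0.13 and -0.05 within bins of GC content, and no member was past the limit. Jak1 (0.36) stood opposite the inhibitor Socs3 (381 and 300 CPM, -0.40) and the TNF receptor gene Tnfrsf1a (291 and 212 CPM, -0.51). Immediate early and AP-1 genes (10 of 22) had 0.01 (0.22 with binarised counts and -0.14 in nuclei of 3000 to 10000 counts), with Ier3 lower (101 and 68.2 CPM, -0.62), Dusp1 at 514 and 411 CPM (-0.38) and Fosb at 436 and 486 CPM (0.10). Growth factor receptors and ligands (18 of 38) had -0.04 (0.17 with binarised counts) and 11 below 0, with Egfr and Igfbp1 lower and the feedback inhibitor Spry2 at 96.8 and 139 CPM (0.46). Heat shock and endoplasmic reticulum stress genes (13 of 34) had 0.05 (0.34 with binarised counts), with Hsp90aa1 higher. Of its 13 members 8 lay above 0, among them Hsp90ab1, Dnaja1 and, in 1 shared pair, Hspd1 and Hspe1. Below 0 were 5, among them the small heat shock protein gene Hspb8 (-0.58) and Hspa1b, which encodes an inducible HSP70 (33.1 and 25.7 CPM, -0.42). Of 342 list members measured, 40 had no principal start within 1 kb of the pair, among them Gsta2, Cth, Egfr and Axin2.

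Distal elements past the limit were spread over the genome, inside and outside genes. Inside genes 96 were higher and 83 lower of 5652, and outside genes 100 and 77 of 4291. The lowest was an intron of Rad51b, a gene of DNA repair (chr12:79557426-79561468), with 1959 counts or 125 CPM (117 to 133) at 48 h and 422 counts or 57.6 CPM (50.1 to 66.0) at 72 h, a log2 ratio of -1.17 (-1.39 to -0.95). An intron of Gphn on the same chromosome was at -1.0 (738 and 179 counts). A pair of elements lay close together near Gm44658 (chr7:19840155-19844648, 232 and 126 CPM, -0.93) and Ceacam16 (chr7:19863636-19868620, 189 and 120 CPM, -0.71). An element 7907 bp from the TSS of Krt8, a keratin of hepatocytes, had 270 and 175 CPM (-0.68), and the Krt8 promoter 903 and 682 CPM (-0.46). Other lower elements lay in introns of Mypn (-0.75), Ahcyl2 (-0.80) and Dync1i2 (-0.74), and between genes near Rpia (-0.74), Vps26c (-0.84) and 2810459M11Rik (-0.82). All 20 named lower elements were called shorter at 72 h.

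The higher distal elements were mostly small. The highest, 19899 bp from the pseudogene Rpl34-ps2, had 179 and 186 counts, 11.4 and 25.4 CPM, a log2 ratio of 1.1 (0.67 to 1.53). An element of 6823 bp at 48 h over an exon of Sult2a8, a sulfotransferase gene of liver, had 1283 counts or 81.8 CPM (75.6 to 88.4) and 1060 counts or 145 CPM (133 to 158), a ratio of 0.77 (0.60 to 0.94). One near Gm14293 had 148 and 235 CPM (0.61), and one in an intron of Ice1 54.3 and 90.6 CPM (0.68). Introns of Osbpl2 (0.88), Focad (0.96), Cit, the citron kinase gene of cytokinesis (0.74), and Tead1, the partner of YAP (0.90), held others, and elements between genes lay near Cpsf4l (0.93), Lrp1b (0.98) and Cd40 (0.83). Of the 20, 2 were called shorter at 72 h.

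Most peaks over tRNA genes had a lower level at 72 h than at 48 h. This set was looked at because tRNA peaks were known to stand out at 48 h in earlier results of these data. The same 48 h library is the base of the ratio, so the values below are a description that is not independent of that choice, and levels at the other times were not compared. Of 385 autosomal tRNA genes in RefSeq, 69 lay in 43 measured pairs, on 16 chromosomes and for 17 amino acids. None was higher and 10 of 43 (23.3%) were lower, beside 1.85% of all pairs, and their median was -0.49. Of the 43, 41 lay below 0 and 36 had an interval wholly below 0. Median levels were 96.6 CPM at 48 h and 71.4 CPM at 72 h. The 16 pairs that also held a TSS of another annotated gene within 1 kb had -0.51 and the 27 without had -0.47, and the 9 on chromosome 13 had -0.52 and the 34 elsewhere -0.48. As many as 41 of the 43 were called shorter at 72 h, and other pairs that were also called shorter and of like length (2861 pairs) had a median of -0.10 with 90 lower. Over 23 alternatives the tRNA median ran from -0.54 to -0.31 and the number lower from 0 to 15.

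Among single tRNA genes n-TEttc5, shown above, had 1385 and 398 counts, 88.3 and 54.4 CPM, a log2 ratio of -0.75 (-0.99 to -0.53). The gene n-TAagc16 had 1615 and 467 counts, 103 and 63.8 CPM, -0.74 (-0.96 to -0.53). A peak with n-TYgta3 and 2 other tRNA-Tyr genes was at -0.75 (-0.94 to -0.55). At the other end stood n-TEttc8, with 332 and 206 counts, 21.2 and 28.1 CPM, 0.35 (-0.01 to 0.72). The tRNA-Glu genes n-TEttc5, n-TEttc6 and n-TEttc8 share 1 sequence that has 4 copies in the genome, yet their peaks were at -0.75, -0.48 and 0.35, and the identical tRNA-Met genes n-TMcat16 and n-TMcat17 were at -0.57 and -0.27. The B box letters were present in 318 of 385 autosomal tRNA genes (82.6%) and in 59 of the 69 measured (85.5%). Reads within identical gene copies may be placed on either, so counts over the copies themselves are uncertain, although the peaks extend well beyond the genes.

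**Figure D5:**
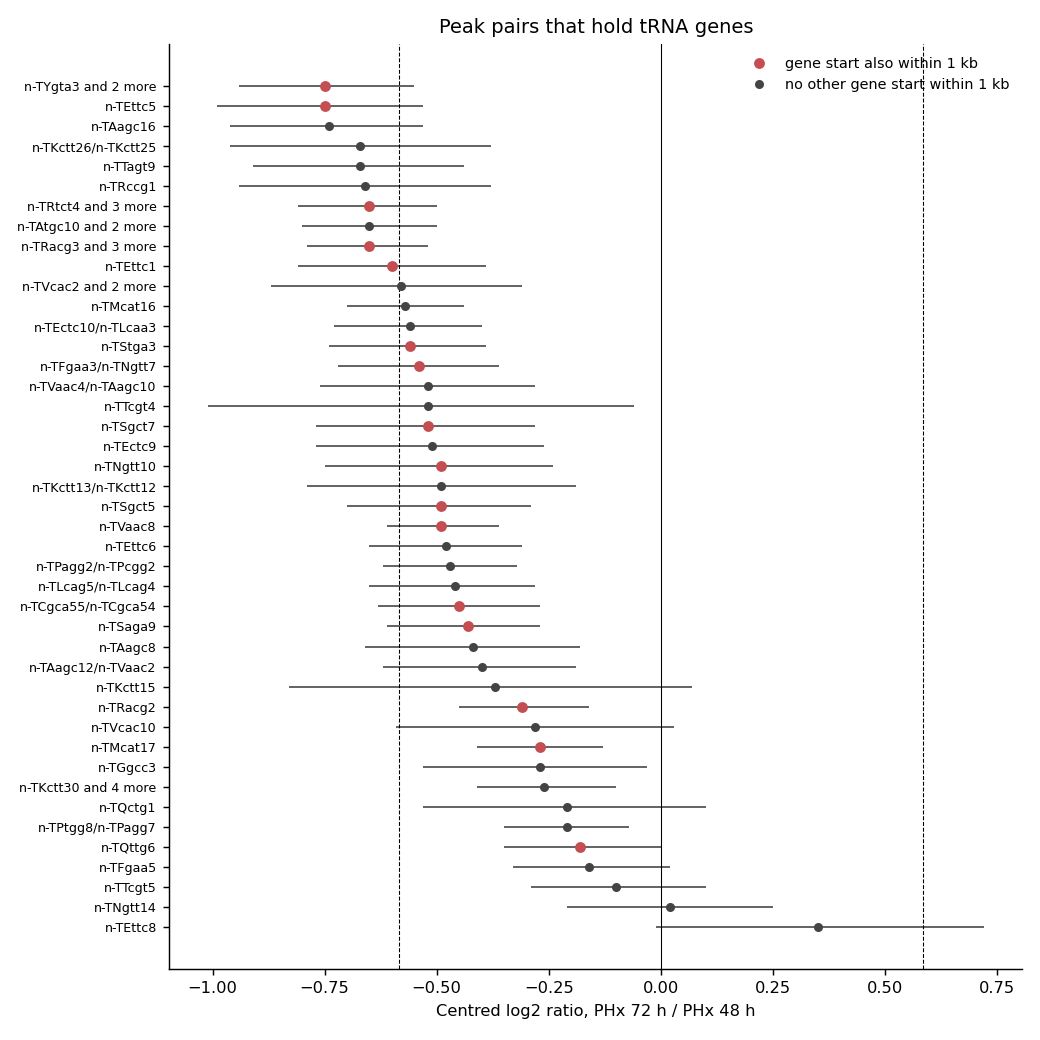
Centred log2 ratio of PHx 72 h to PHx 48 h (x axis) of the 43 peak pairs that hold tRNA genes, 1 row per pair, with bars for exact 95% counting intervals, dashed lines at 1.5-fold and red for pairs with another gene start within 1 kb. Of the 43 pairs 41 lie below 0, from -0.75 for n-TEttc5, and n-TEttc8 lies highest at 0.35.

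Sequence letters were counted in the central 300 bases of each pair, on both strands. In the broad pairs of Igfbp1, G6pc and Fasn these bases do not reach the windows printed above. The shares below therefore do not count the capitalised sites, and CAAAACA and CCAAT were chosen after the values had been seen. CAAAACA, the letters in capitals before Igfbp1 and G6pc, was in 14 of 132 lower promoters (10.6%), 1 of 67 higher ones (1.49%) and 5.79% of all promoters. CCAAT, in capitals before Fasn, was in 39 of 132 (29.5%), 17 of 67 (25.4%) and 26.1%. AGATAA, the letters of GATA factors, was in 22 of 132 lower promoters (16.7%), 4 of 67 higher ones (5.97%) and 7.11% of all. GGGGCGGGG, of SP and KLF factors, was in 2 of 132 (1.52%), 5 of 67 (7.46%) and 8.54%. AP-1 letters (TGANTCA) were in 11 of 132 (8.33%), 1 of 67 (1.49%) and 4.93%. Lower promoters were poorer in GC, and letter counts move with base content, so these shares are a description only. In distal elements the shares of AGATAA were 11.2% in lower, 14.3% in higher and 15% in all elements.

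Depth differed between the times, and nuclei of like depth were therefore set side by side. Nuclei with 3000 to 10000 counts numbered 1201 at 48 h (median 6342) and 2482 at 72 h (median 5480.5). Mean counts per nucleus in this band were 3.08 at 48 h and 1.18 at 72 h for Mat1a, 4.60 and 2.17 for Egfr, 1.33 and 0.732 for Igfbp1 and 5.47 and 3.95 for Apob. Hsp90aa1 had 0.772 and 1.63, and Fasn 1.43 and 3.0. The 4 genes lower at 72 h and the 2 higher kept their direction here, in nuclei that were still deeper at 48 h by the median. Of the 80 named pairs 47 could be measured in the band, all in the same direction, but 28 of them moved out of their counting interval. St5 went from -0.74 to -0.25, Rnf125 from -0.82 to -0.37, Fetub from -1.04 to -0.58 and Lrrk2 from 0.67 to 0.30.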

How the data were processed

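Libraries of PHx 48 h and PHx 72 h were analysed, 1 per time. The deposited matrices hold raw counts of transposase cut sites per peak and barcode, which the authors made with Cell Ranger ATAC (file header version 1.1.0) on mm10, per the submitters' processing notes, and peaks were called in each library on its own. In all, 62553202 counts at 48 h and 25540258 at 72 h were deposited, and 87.5% and 88.1% of values were even, since both ends of a fragment count. Intervals were therefore computed on counts divided by 2 (Poisson for levels, binomial for ratios). Counts of nuclei (at least 1000) were summed per library over length-matched pairs, scaled to equal totals and given a pseudocount of 0.5 before log2. Peaks ended inside GRCm38 chromosomes, and genes and TSS came from the GENCODE annotation and tRNA genes from RefSeq. No test, doublet caller or batch term was used.

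Named were the 20 promoters and 20 distal elements in each direction whose interval lay farthest from 0, and in each gene list the members with the most extreme ratios and its defining genes. Members and lists were chosen with earlier results of these data known. Of the alternatives, 16 were planned and 7 added after seeing the data. Scripts were tested on simulated counts. Sex chromosomes were left out. A few genes of the lists are counted but not reported by name here. Of the 3 RefSeq promoter windows printed, bases in annotated exons were removed. Tools were Python 3.11.15, numpy 2.4.6, pandas 2.3.3, scipy 1.17.1 and matplotlib 3.10.9.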

Additional observations from a re-analysis of the deposited data

How the results depend on the processing

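No paired analysis was possible because each time point has 1 library, and no library could be left out. Of 1681 named values over 23 alternatives, 1675 kept their direction. A fold of 2, a TSS inside the peak and principal starts cannot change the ratio of a pair. Their 80 values each were therefore bound to keep their direction. The named pairs were also picked from the same counts for intervals far from 0, so this tally is a description only. All 6 that reversed did so with binarised counts, in which a nucleus adds at most 1 to a peak: Mat1a 0.04, Egfr 0.36, Selenop 0.04, Pzp 0.53, Fam32a 0.13 and Apob 0.75. The cause was not tested.

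Counts below are promoters higher and lower, then distal elements higher and lower, where they moved by over 1.5 times. Thinning each nucleus to 1000 counts gave 25, 32, 6 and 18. Binarised counts gave 52, 33, 26 and 69. A stricter limit on the length ratio gave 27, 57, 66 and 82, all pairs of any length 833, 790, 1948 and 2991, and a fold of 2 gave 1, 7, 1 and 1. A minimum mean of 50 gave 437 and 295 distal elements, and one of 200 gave 82 promoters lower and 57 and 81 distal elements. No centring gave 112, 82, 301 and 95. Centring in bins of mean count gave 83 promoters lower, and in bins of GC content 41 higher.

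Among alternatives added after seeing the data, nuclei with 3000 to 10000 counts gave 76, 62, 31 and 56, and 28 of 47 named values moved. Centring on all pairs of near-equal length gave 41 promoters higher and 120 and 288 distal elements. Counts per base gave 87 promoters lower and 117 distal elements higher. Bins of length change gave 73 promoters lower and 112 and 103 distal elements, bins of GC content and mean count 36 and 87 promoters, and principal starts 82 promoters lower.

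The promoter minus distal median, -0.01, was 0.12 with thinning, 0.1 with binarised counts, 0.06 over all pairs, -0.04 and 0.04 at minimum means of 50 and 200, 0.05 in bins of mean count, -0.07 in bins of GC content, 0.09 in the depth band and 0.01 in bins of GC content and mean count. It has no stable sign. Depth limits the small pairs, and 72 h, with fewer counts, sets the width of most intervals.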

Other observations

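Promoters that belong to long noncoding RNA genes only were 367 of the pairs measured, with 5 higher, 7 lower and a median of -0.01. Promoters of protein-coding genes were 5061, with 59 higher, 105 lower and a median of 0.00. By chromosome the median ratio ran from -0.08 on chromosome 15 to 0.09 on chromosome 19.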
